A study of Mus musculus with 48 samples.

Results

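The transcripts of the pituitary hormones and of their regulators were followed across both brain regions of the series. The set held 8 genes, of which 7 had a probe with a matching RefSeq accession (Prl, Gh, Cga, Tshb, Lhb, Fshb and Ghrhr, 1 probe each), among 18879 named genes and 41174 probes on the array. No probe matched Pou1f1, so that gene has no value here. The genes were chosen from earlier results of these same data because their probes stood high on 2 arrays, WT hypothalamus replicate 8 and Per3 5/5 cortex replicate 5. Levels on those 2 arrays are therefore given as a description without a test, and the comparisons between groups were tested without them.

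The series comprised 48 arrays, 1 for frontal cortex and 1 for hypothalamus of each of 24 mice, with 8 mice per genotype. Per3 5/5 mice (labelled Boxhill) and Per3 4/4 mice (labelled Coach) were adult C57BL/6 knock-in homozygotes in which human exon 18 of PER3, with 5 or 4 copies of its repeat, replaced exon 18 of mouse Per3 by Cre-Lox recombination with a Cre expressed in all cells, and the WT mice carried the mouse gene. The 4- and 5-repeat alleles were carried by separate transgenic lines, and mice of all 3 genotypes were bred free of Cre and kept by homozygous breeding pairs. All 24 mice were kept awake for 12 h before the brain was taken, in groups of 8 that mixed the genotypes, and how the regions were cut from the stored brains is not given in the sources used here. No rested mice are part of the data analysed here, and the sex of these mice is not given in the sources used here.

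The anterior pituitary lies directly below the hypothalamus and is joined to it by a stalk. Its lactotrophs make prolactin (Prl) and its somatotrophs make growth hormone (Gh), which is released on a signal from the receptor for growth hormone-releasing hormone (Ghrhr). The glycoprotein hormones share an alpha subunit (Cga) and differ in the beta subunit, Tshb for thyrotropin, Lhb for lutropin and Fshb for follitropin. Pou1f1 is the transcription factor of the lactotroph, somatotroph and thyrotroph lines. The pars tuberalis, the thin part of the pituitary that wraps the stalk and the base of the hypothalamus, is known for cells that make Tshb and Cga.

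Values are log2 signals minus the log2 75th percentile of the same array, so that 0 is the brightness of a probe at that percentile. Array brightness (the 75th percentile of the signal) ran from 307 to 1884 intensity units and was higher in WT hypothalamus (1206 to 1884) than in Per3 5/5 hypothalamus (917 to 1217), with Per3 4/4 spread over both (307 to 1575). Each array had 29588 to 34969 spots well above background and none was saturated, and the 24 arrays per tissue limit the precision. Replicate arrays within a group correlated at r = 0.968 to 0.989. Region markers matched the labels: 8 of 9 hypothalamus probes, among them Hcrt, Pmch and Agrp, were called higher in hypothalamus and 10 of 10 cortex probes, among them Tbr1, were called lower there in every genotype. The remaining hypothalamus probe, Npy, was called lower in hypothalamus than in cortex in all 3 (-1.61 to -1.33). Sex markers were read on the 23 hypothalamus arrays other than WT replicate 8. Every Xist probe was well above background on 0 of them, and the Y-linked genes Ddx3y, Eif2s3y and Kdm5d on all 23, the pattern of male mice. Mice were scanned on 3 days, day 1 with 4 Per3 5/5 and 4 Per3 4/4 mice, day 2 with 3 Per3 4/4 and 5 WT mice, and day 3 with 4 Per3 5/5, 1 Per3 4/4 and 3 WT mice. Both arrays that chose the genes were scanned on day 3.

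The 250 bases before the start site are shown for 3 of the hormone genes, because Prl on the one side and Cga and Tshb on the other followed different patterns across the hypothalamus arrays. Sequences are RefSeq, build GRCm38.p6, 5′ to 3′ on the strand of the gene. Capitals mark TATNCAT, a core of POU1F1 sites (in its other orientation ATGNATA), and TATAAA, the TATA box.
Prl, chr13:27057320-27057569, plus strand: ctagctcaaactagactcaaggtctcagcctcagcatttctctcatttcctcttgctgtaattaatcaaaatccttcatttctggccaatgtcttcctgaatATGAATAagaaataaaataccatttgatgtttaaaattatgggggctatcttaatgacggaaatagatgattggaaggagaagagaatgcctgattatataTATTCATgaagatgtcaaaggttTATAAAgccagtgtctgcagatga
Cga, chr4:34893529-34893778, plus strand: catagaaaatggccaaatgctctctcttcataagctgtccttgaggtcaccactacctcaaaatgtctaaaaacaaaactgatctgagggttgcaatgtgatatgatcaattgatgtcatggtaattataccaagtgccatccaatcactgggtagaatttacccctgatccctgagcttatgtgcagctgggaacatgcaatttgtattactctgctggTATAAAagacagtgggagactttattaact
Tshb, chr3:102782715-102782964, minus strand: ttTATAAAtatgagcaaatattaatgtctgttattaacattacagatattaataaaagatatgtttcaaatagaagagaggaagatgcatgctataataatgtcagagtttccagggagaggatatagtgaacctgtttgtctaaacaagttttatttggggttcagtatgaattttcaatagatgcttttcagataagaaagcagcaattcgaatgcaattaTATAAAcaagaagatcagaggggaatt
Prl held TATTCAT from 47 to 41 bases before the start and ATGAATA from 148 to 142 bases before it. Neither Cga nor Tshb held TATNCAT in this window on either strand, and 7.92% of 32851 promoters did. A TATAAA on the strand of the gene lay 24 bases (Prl), 30 bases (Cga) and 27 bases (Tshb) before the start, and 12.4% of all promoters held it on either strand within the 250 bases. A match of letters is a description and was not tied to any measured binding.

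On WT hypothalamus replicate 8 all 7 probes stood above each of the other 23 hypothalamus arrays. Gh reached 8.09 and Prl 7.89, where the median of the other hypothalamus arrays was -4.84 and -4.11. Cga reached 7.78 against a median of 1.15, and Tshb 3.32 against -3.95. Lhb was 2.64 (median of the others -2.09), Fshb 0.78 (-5.24) and Ghrhr -0.09 (-5.82). The excess was thus 12.93 for Gh and 12.00 for Prl, and between 4.73 (Lhb) and 7.27 (Tshb) for the other members. The cortex array of the same mouse showed no such levels, with Prl at -6.56 and Gh at -5.97.

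On Per3 5/5 cortex replicate 5 the excess was smaller and covered 4 of the 7 probes. Prl was 1.61 against a cortex median of -5.36, Gh 1.24 against -5.00, and Cga -0.75 against -5.34. Tshb was -4.84, the only cortex array on which its probe was well above background, against -7.93. Fshb exceeded the cortex median by 0.96, Lhb by 0.27 and Ghrhr by 0.16. The Fshb value was the highest of the 24 cortex arrays, while 12 of the other 23 arrays were lower than this array in Ghrhr and 20 in Lhb. In the hypothalamus of the same mouse Prl was -0.29 and Gh -0.32, while Cga (0.20) and Tshb (-5.10) lay below their medians.

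**Figure D1:**
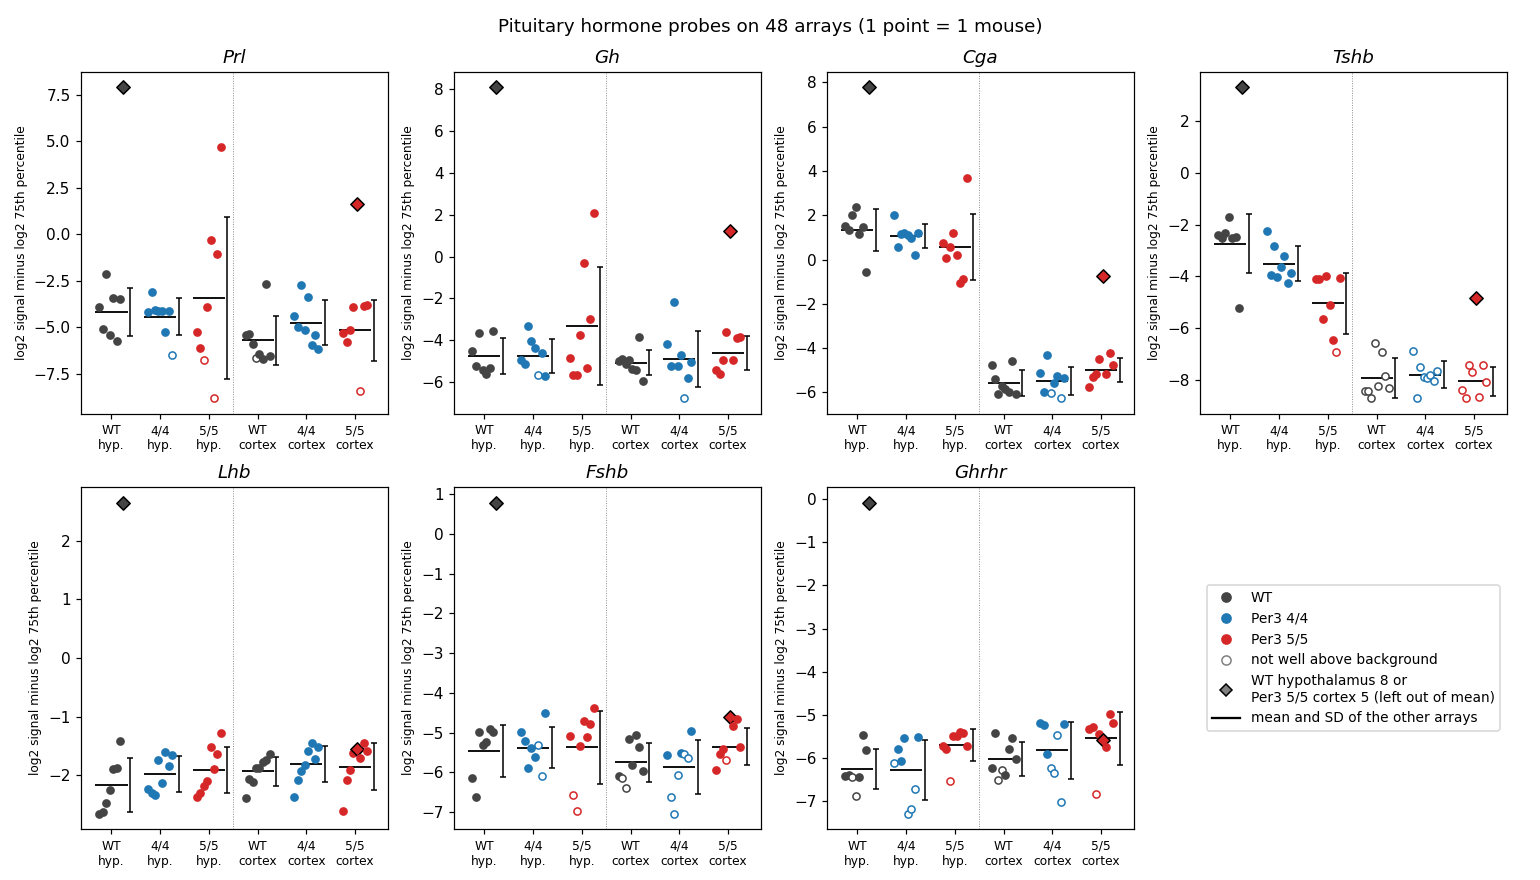
Level of each of the 7 probes on the 48 arrays (y axis, log2 signal minus the log2 75th percentile of the array; x axis, genotype and tissue). Each point is 1 mouse, open points were not well above background, diamonds are WT hypothalamus 8 and Per3 5/5 cortex 5, and the line and bar give the mean and SD of the other arrays; the diamond of WT hypothalamus 8 lies above every other array in all 7 panels, and with the diamonds set aside Cga does not overlap between the tissues, while the lowest Tshb array of hypothalamus (-6.95) reaches below the highest of cortex (-6.58).

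Other genes of the pituitary were read on the same 2 arrays from lists of markers. On WT hypothalamus replicate 8, 16 of 23 probes for other anterior pituitary genes exceeded the median of the other arrays by more than 1 on the log2 scale. The pituitary transcription factors Pitx1 (4.72), Neurod4 (4.18), Tbx19 (3.55) and Lhx3 (2.65) were among them, as was Pomc (2.99), the precursor of corticotropin. Of 10 probes for receptors on pituitary cells, 3 exceeded the median by more than 1. They were Gnrhr, the gonadotroph receptor for gonadotropin-releasing hormone (7.74), and both Esr1 probes (1.83 and 1.38). Trhr (-0.11), Crhr1 (-0.29 and -0.48) and Drd2 (-0.14) did not exceed their medians. For Gnrhr and Neurod4 the median is that of dim probes, well above background on 1 of the other 23 arrays each, and Tbx19 was so on 4. The hypothalamic hormones that act on the pituitary went the other way in all 8 probes, from -0.91 to -0.14.

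Markers of other tissues also moved on that array, which deviated in many genes. There 220 of 29297 detected probes were more than 2 above the median. On the other 23 hypothalamus arrays that count ran from 7 to 344, with a median of 24. The share of all probes more than 1 above the median was not counted, so the list counts have no such share beside them. Among choroid plexus probes 5 of 8 exceeded the median by more than 1, led by Aqp1 (2.59), and among blood probes 2 of 4 did, the neutrophil genes S100a8 (3.37) and S100a9 (2.71). Meninges probes ran from -0.44 to 0.92, and hypothalamus markers other than Pomc from -0.92 to 0.17. The part of these tissues in the hormone levels was not tested.

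Of the 15 named probes with the largest excess on WT hypothalamus replicate 8, 6 were hormone set members (Gh, Prl, Tshb, Cga, Fshb and Ghrhr). The other 9 were 4930579G24Rik (8.07), Gnrhr, the tissue kallikreins Klk1b16 (7.13) and Klk1b26 (6.81), Kdf1, Ceacam10, the epithelial adhesion gene Epcam (5.94), the fatty acid receptor Ffar4 (5.90) and Ano9. Klk1b26 and Ffar4 were well above background on 0 of the other 23 arrays and Klk1b16 and Ano9 on 5, so that their excess is over dim signal. On Per3 5/5 cortex replicate 5, Prl, Gh and Cga were the only members among the top 15, at ranks 1, 2 and 12. The other 12 probes there (Fmo9, A930006I01Rik, Kcnj15, Samt1c, Nutm1, Ms4a3, Vmn1r30, 4930455F16Rik, Vmn1r22, Smok2a, Gm13288 and Olfr1453) were well above background on at most 9 of the other 23 cortex arrays. Of the list genes on that array, Pomc stood 2.35, Pitx1 1.90 and Isl1 3.13 above the cortex median, Isl1 being a gene that the striatum also expresses, and Gnrhr (0.12), Neurod4 (-0.90) and Lhx3 (-0.29) were not raised. The 2 top lists shared Prl, Gh and Cga alone, 20% of each.

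**Figure D2:**
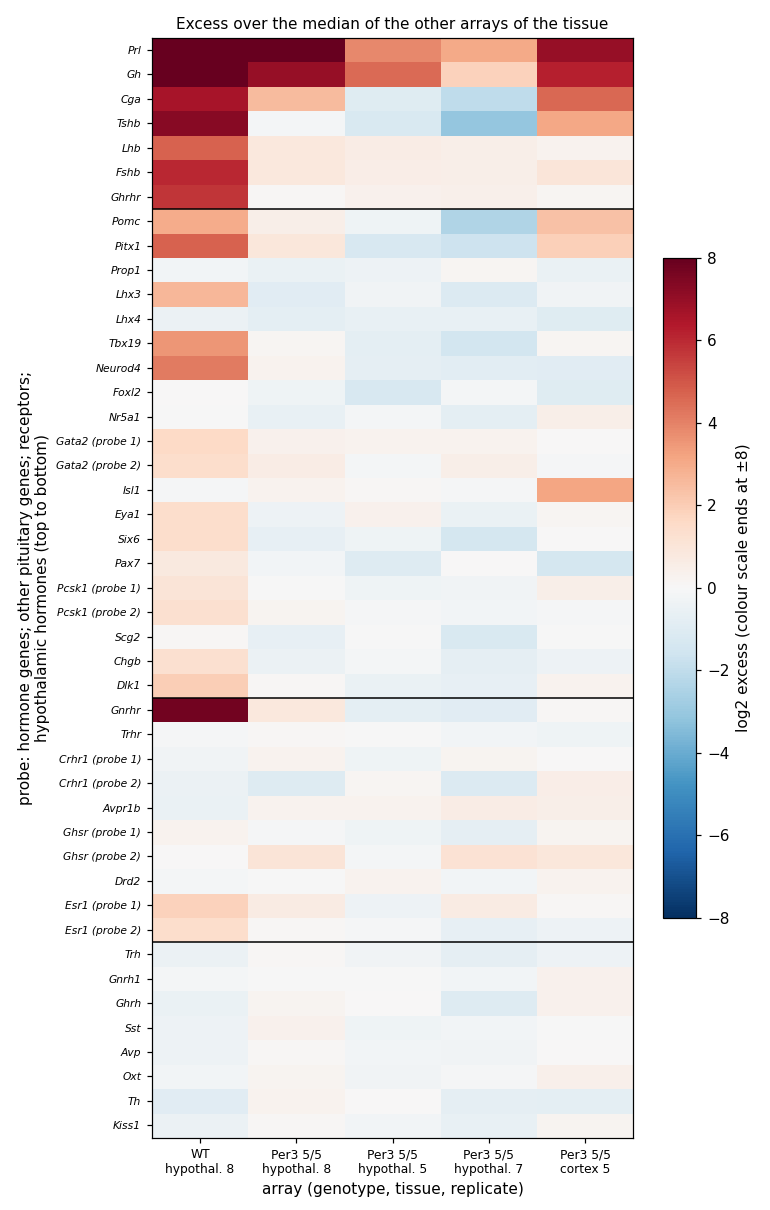
Excess of each probe over the median of the other arrays of its tissue (colour, log2; scale ends at ±8) on 5 arrays (x axis), for the hormone genes, other anterior pituitary genes, receptors on pituitary cells and hypothalamic hormones (y axis, blocks from top to bottom; a few pituitary probes are not drawn). WT hypothalamus 8 is raised across the hormone and pituitary blocks, while Per3 5/5 hypothalamus 8 is raised mainly in Prl (8.81), Gh (6.95) and Cga (2.54).

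Raised Prl and Gh were not limited to the 2 arrays that chose the genes. In Per3 5/5 hypothalamus Prl ran from -8.82 to 4.70 (median -4.58, n = 8), against -6.48 to -3.09 (median -4.11, n = 8) in Per3 4/4 and -5.72 to -2.15 (median -3.90, n = 7) in WT. Per3 5/5 replicates 8 (4.70), 5 (-0.29) and 7 (-1.05) lay above every WT and Per3 4/4 array in the fit, and 3 other Per3 5/5 arrays lay below all WT arrays. The same 3 mice were highest in Gh, with 2.10, -0.32 and -2.99 in that order, above the highest WT or Per3 4/4 value of -3.33. The other 5 Per3 5/5 arrays ran from -5.66 to -3.76 in Gh, within the range of the other genotypes (-5.71 to -3.33). All 3 mice were scanned on day 3.

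The rest of the set did not move alike on these 3 arrays. On Per3 5/5 hypothalamus replicate 8 Lhb exceeded its median by 0.82 and Fshb by 0.86, both above every WT and Per3 4/4 array in the fit. There Tshb differed from its median by -0.18 and Ghrhr by 0.09, and 0 of 23 probes for other anterior pituitary genes exceeded the median by more than 1, with Pitx1 at 0.89 and Pomc at 0.48. Cga on that array was 3.70, above all other hypothalamus arrays but WT replicate 8. On replicate 5 Cga was lower than its median (-0.97) and so was Tshb (-1.22). On replicate 7 the gap was larger, -2.05 for Cga and -3.06 for Tshb, beside 3.06 for Prl and 1.85 for Gh. Ghrhr there lay above every WT and Per3 4/4 array in the fit. The alpha subunit and thyrotropin beta were thus below their medians on replicates 5 and 7, where prolactin and growth hormone were above theirs, whereas on replicate 8 the alpha subunit was raised with them.

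Across the 23 hypothalamus arrays without WT replicate 8 the closest relations were those of Prl with Gh and of Cga with Tshb. Prl and Gh correlated at Pearson r = 0.89 (Spearman rho = 0.78), and Cga and Tshb at r = 0.73 (rho = 0.81). Lhb and Fshb followed at r = 0.60 (rho = 0.57), and Tshb ran against Lhb (r = -0.49, rho = -0.48) and Ghrhr (r = -0.46, rho = -0.44). Between the first 2 pairs the correlation was low, r = -0.03 for Prl and Tshb and r = -0.23 for Gh and Tshb, with Cga and Prl at r = 0.41 (rho = 0.09). These are descriptions over arrays that share 3 scan days and 12 slides. With WT replicate 8 included (24 arrays), Prl and Tshb correlated at r = 0.49 but rho = 0.10.

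**Figure D3:**
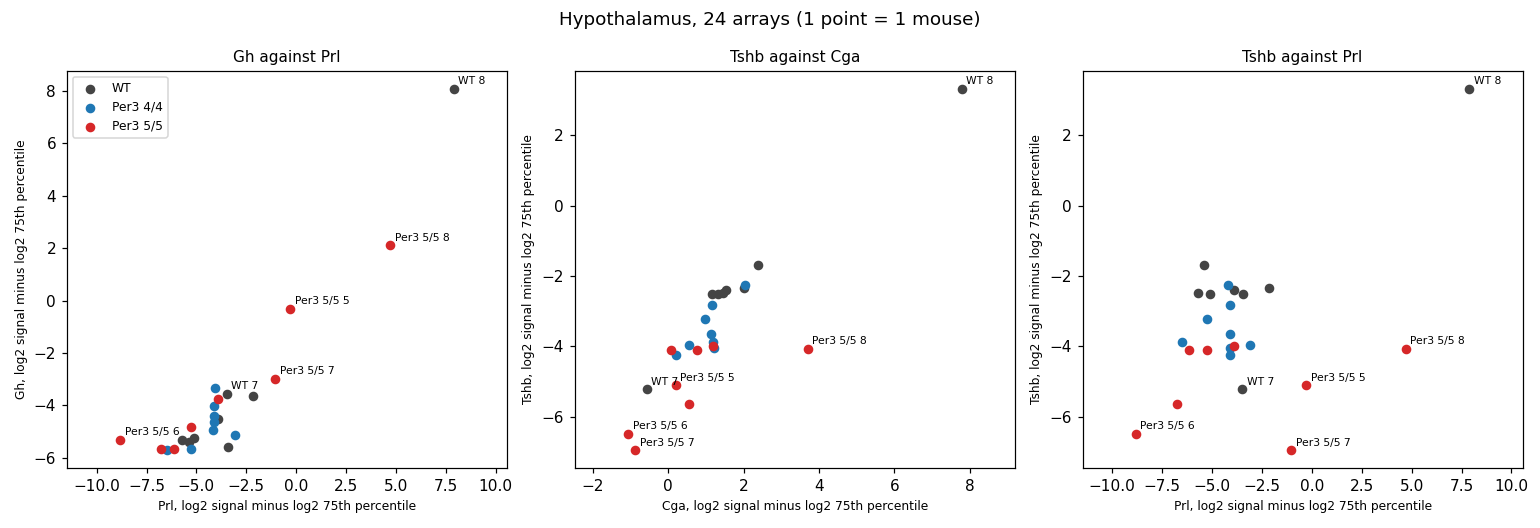
Levels of pairs of probes on the 24 hypothalamus arrays (both axes, log2 signal minus the log2 75th percentile; 1 point is 1 mouse, coloured by genotype). Gh follows Prl up to Per3 5/5 replicate 8 and WT replicate 8, Tshb follows Cga apart from Per3 5/5 replicate 8, and Tshb shows no relation to Prl once WT replicate 8 is set aside.

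Both tissues of a mouse were hybridised on the same slide. Over the 22 mice left without the mouse of each chosen array, Prl in hypothalamus and in cortex correlated at r = 0.53 (rho = 0.51), Gh at r = 0.52 (rho = 0.59), Ghrhr at r = 0.56 and Lhb at r = 0.74 (rho = 0.83). Per3 5/5 replicate 6 was the lowest in Prl in both tissues (-8.82 in hypothalamus and -8.43 in cortex), not well above background in either. For Tshb (r = 0.18) and Cga (r = -0.15) the tissues of a mouse showed little relation. The level of Lhb also moved with the scan day, with a hypothalamus median of -2.27 on day 1, -2.19 on day 2 and -1.64 on day 3, and the part of the scan day in the agreement between tissues was not tested.

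Cga was called higher in hypothalamus than in cortex in every genotype. Cga in hypothalamus was 1.33 ± 0.94 in WT (SD, n = 7), 1.05 ± 0.53 in Per3 4/4 (n = 8) and, in Per3 5/5, 0.57 ± 1.48 (n = 8). In cortex it was -5.56 ± 0.59 in WT (n = 8), -5.49 ± 0.62 in Per3 4/4 (n = 8) and, in Per3 5/5, -4.99 ± 0.53 (n = 7). The lowest hypothalamus array (-1.06) lay above the highest cortex array left in the fit (-4.21), so that Cga did not overlap between the tissues. In the limma fit on differences within each mouse, Cga was higher in hypothalamus by 6.82 (SE 0.45, adjusted p = 1.61e-11) in WT, 6.55 (SE 0.42, adjusted p = 8.80e-12) in Per3 4/4 and, for Per3 5/5, 5.61 (SE 0.45, adjusted p = 4.44e-10). Of all 30862 probes tested, 56.5% were called between tissues in Per3 5/5, 59.5% in Per3 4/4 and 57.7% in WT mice, and 2, 3 and 2 of the 7 members were called, Tshb among them although it passed the filter on dim probes through hypothalamus alone.

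Tshb was well above background on 22 of the 23 hypothalamus arrays in the fit and on none of the 23 cortex arrays. Its level in hypothalamus was at least 17.1-fold the cortex level in WT, at least 7.60-fold in Per3 4/4 and, for Per3 5/5, at least 2.60-fold. These are lower bounds for the main processing only. They are set against the dimmest signal that counted as well above background on each cortex array or the probe's own signal where that was higher. Over 31 alternatives the fitted log2 difference stayed above 0. It was as low as 2.01 in WT, 0.75 in Per3 4/4 and 0.42 in Per3 5/5, which is under these bounds. The limma fit gave adjusted p = 4.40e-10, 2.48e-09 and 1.78e-06 in that order, with a probe at background on the cortex side. The probe entered this fit through hypothalamus alone, so the filter set the direction of the call. These p-values add no support to the counts of arrays above background. Prl, Gh, Lhb and Fshb were not called between the tissues in any genotype. Ghrhr was called in Per3 4/4 alone (-0.45, SE 0.19, adjusted p = 0.0458), with 4 of 8 arrays of each tissue well above background, and the call was lost in 17 of 30 alternatives. No member was called for a difference between genotypes in this tissue difference (0 of 7 called, 0% of all probes; 1 member, Tshb, had an unadjusted p under 0.05 in Per3 5/5 against WT and against Per3 4/4).

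In hypothalamus Tshb was the only member called between genotypes. Without replicate 8, WT arrays read -5.21, -2.51, -2.51, -2.50, -2.39, -2.33 and -1.69. Per3 4/4 arrays ran from -4.25 to -2.25 with a median of -3.76, and Per3 5/5 arrays from -6.95 to -3.98 with a median of -4.60. All 8 Per3 5/5 arrays lay below 6 of the 7 WT arrays, and the groups overlapped through WT replicate 7 (-5.21). Tshb in Per3 5/5 against WT was -2.32 (SE 0.50, 4.98-fold lower, limma adjusted p = 0.00578), where 17.1% of 30505 probes were called in that comparison. With normexp background correction it was -1.22 (adjusted p = 0.0060). An exact two-sided permutation test of this probe alone gave p = 0.00186. A lower Tshb in Per3 5/5 hypothalamus was already known from a fit on all arrays when the genes were chosen, so this call is no independent evidence. In bulk tissue, fewer cells of a type and less RNA per cell cannot be told apart.

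The other comparisons of Tshb missed the threshold. Per3 5/5 against Per3 4/4 was -1.54 (SE 0.48, adjusted p = 0.229, exact permutation p = 0.00404), in a comparison where 0% of all probes were called (5039 at an unadjusted p under 0.05, and 0 by the methods' t-test after adjustment). Per3 4/4 against WT was -0.77 (SE 0.50, adjusted p = 0.288), with 12.4% of probes called. Without WT replicate 7, the array low in both Tshb and Cga, that difference was -1.18 (adjusted p = 0.0688) and Per3 5/5 against WT was -2.73 (adjusted p = 0.00186). In the fit that blocked on scan day, Per3 5/5 against WT was -2.17 (SE 0.56, adjusted p = 0.0981) and lost the call, as did -1.79 (SE 1.03, adjusted p = 0.509) within day 3, with 4 Per3 5/5 and 2 WT arrays. Within day 1 Per3 5/5 against Per3 4/4 was -1.19 (SE 0.50, adjusted p = 0.9998) and within day 2 Per3 4/4 against WT was -1.41 (SE 0.26, adjusted p = 0.438).

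Cga and the other members were not called between genotypes. Cga in Per3 5/5 against WT was -0.76 (SE 0.52, adjusted p = 0.304). Leaving out Per3 5/5 replicate 8, on which Cga was 3.70, gave -1.21 (SE 0.39, adjusted p = 0.0429). Prl in the same comparison was 0.73 (SE 1.33, adjusted p = 0.724) and Gh 1.45 (SE 0.88, adjusted p = 0.247), both with SDs of 4.35 and 2.83 in Per3 5/5 against 1.29 and 0.86 in WT. Without replicates 5, 7 and 8, an alternative chosen after seeing the data, Prl turned to -2.01 (adjusted p = 0.0686) and Gh to -0.30 (adjusted p = 0.688). Ghrhr was 0.57 (SE 0.26, adjusted p = 0.129), Lhb 0.27 (SE 0.19) and Fshb 0.09 (SE 0.35). The median over the 7 members was 0.27, beside 0.03 over all probes tested.

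The 2 chosen arrays moved these differences. With WT hypothalamus replicate 8 included, Tshb in Per3 5/5 against WT was -3.07, Cga -1.57, Prl -0.78 and Gh -0.16. In Per3 4/4 against WT the inclusion took Prl from -0.26 to -1.77 and Gh from 0.02 to -1.58. No test is given for these, since the array chose the genes. Prl and Gh thus changed sign in Per3 5/5 against WT with 1 array.

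**Figure D4:**
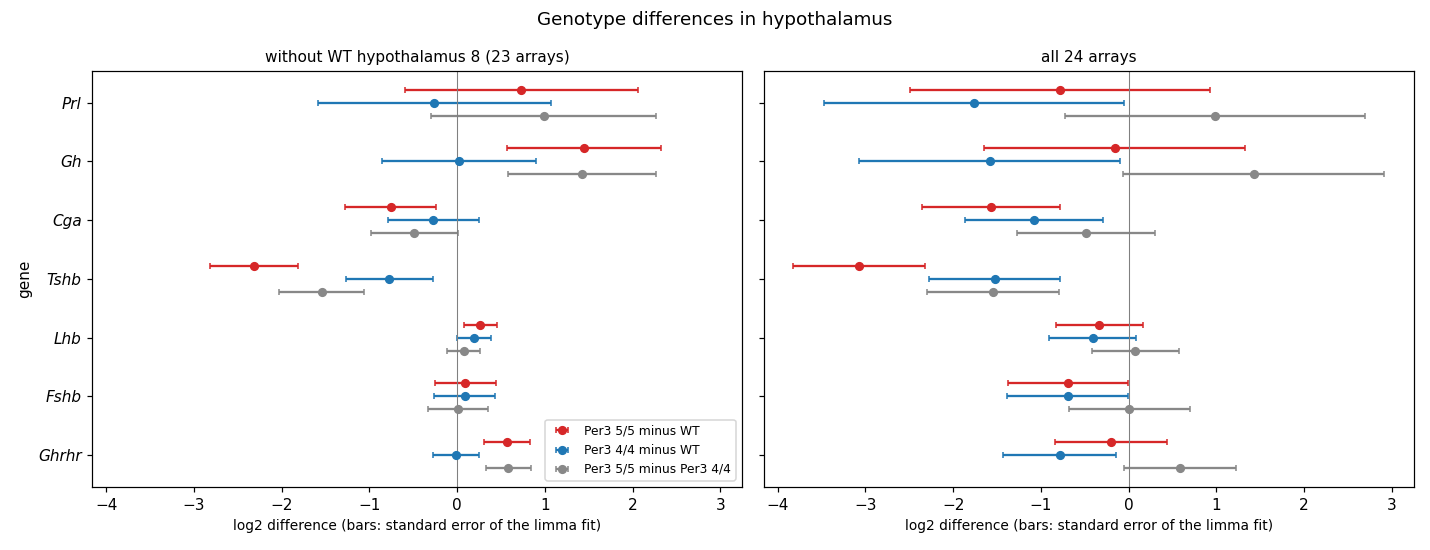
Log2 difference between genotypes in hypothalamus for each of the 7 probes (y axis), without WT hypothalamus 8 (left, 23 arrays) and with it (right, 24 arrays). Points are the limma estimates and bars their standard errors; Tshb in Per3 5/5 against WT is the difference farthest below 0 in both panels, and Prl and Gh in Per3 5/5 against WT cross from above 0 to below 0 when the array is added.

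In cortex none of the 6 members tested was called, nor did any reach an unadjusted p under 0.05, in limma or in the methods' t-test. The share of all 29582 probes called there was 0% for Per3 5/5 against Per3 4/4 (4909 at an unadjusted p under 0.05, and 1 by the methods' t-test), 8.56% for Per3 5/5 against WT and 22.1% for Per3 4/4 against WT. The differences of the members ran from -0.41 (Prl, Per3 5/5 against Per3 4/4) to 0.95 (Prl, Per3 4/4 against WT). Tshb was not tested in cortex, where it was well above background on Per3 5/5 replicate 5 alone. With that array included Prl in Per3 5/5 against WT went from 0.54 to 1.39, Gh from 0.46 to 1.19 and Cga from 0.57 to 1.101. With normexp background correction, 5 of 6 members (Prl, Gh, Cga, Fshb and Ghrhr) were called higher in Per3 4/4 against WT and 3 (Cga, Fshb and Ghrhr) in Per3 5/5 against WT, where 45.1% and 21% of all probes were called higher. That setting also moved the median of all probes to 0.22 and 0.15 in these comparisons, from 0.02 and 0.06.

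Markers were set beside the Tshb difference. Pitx1, a transcription factor expressed throughout the pituitary, was -1.45 ± 0.71 in WT (SD, n = 7), -2.16 ± 0.42 in Per3 4/4 (n = 8) and -2.58 ± 0.82 in Per3 5/5 hypothalamus (n = 8). It was called lower in Per3 5/5 against WT (-1.13, SE 0.33, adjusted p = 0.0235), and its level correlated with Tshb at r = 0.90 over the 23 arrays. Six6 (-0.87, adjusted p = 0.00462) and Isl1 (-0.61, adjusted p = 0.0179), transcription factors of both hypothalamus and pituitary, were also called lower, so 3 of 21 probes for other anterior pituitary genes fell and 0 rose, where 7.86% of all probes were called lower and 17.1% in either direction. Pitx1, Six6 and Isl1 lost these calls with scan day as a block (adjusted p = 0.227, 0.0725 and 0.315). In Per3 4/4 against WT, Gata2, Isl1 and Six6 fell, again 3 of 21, beside 5.87% of all probes called lower and 12.4% in either direction.

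Genes of neighbouring tissue were low on some of the arrays low in Tshb and not on others. Per3 5/5 hypothalamus replicates 6 and 7, with the lowest Tshb (-6.48 and -6.95), were more than 1 below the median in 7 and 8 of 10 meninges probes. WT replicate 7 and Per3 5/5 replicate 5, with Tshb at -1.33 and -1.22 from its median, were so in 0 of 10. Replicates 6 and 7 also deviated in other genes, with 76 and 344 of 29297 detected probes more than 2 above the median. Over the 23 arrays without WT replicate 8 the median of this count was 24, and replicate 7 had the highest. The share of all probes more than 1 below the median was not counted, so the low meninges probes were not shown to be specific. Averaged over the 10 meninges probes, arrays lay from -1.59 to 0.28 of the median in Per3 5/5, between -0.49 and 0.82 in Per3 4/4 and between -0.72 and 0.34 in WT mice. The group medians of these averages were -0.40, 0.27 and -0.26 in that order. Lum was the 1 meninges probe called lower in Per3 5/5 against WT (-0.90, adjusted p = 0.0452), with Aqp1 and Ttr of 8 choroid plexus probes and S100a8 and S100a9 of 4 blood probes, beside the 7.86% of all probes called lower. With scan day as a block, nearly all calls over all probes were lost in that comparison. Averaged over the 4 blood probes the range was -2.18 to 0.86 in Per3 5/5 (group median -0.69) and -0.22 to 2.16 in WT mice (0.75). In Per3 4/4 it was -0.64 to 1.30 (-0.12). The part of neighbouring tissue in the Tshb difference was not tested. Over the 23 arrays Tshb correlated with the meninges genes Dcn (r = 0.76) and Lum (r = 0.64), with S100a8 (r = 0.72) and S100a9 (r = 0.71), and with the cortex gene Cux2 at r = -0.79.

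The arcuate nucleus, at the base of the hypothalamus, was read from Agrp, Npy and Pomc, of which Npy is higher in cortex. On Per3 5/5 replicate 7 the difference from the median of the other arrays was -3.42 for Agrp, -2.43 for Pomc and -1.75 for Npy. The other genes of the hypothalamus and hypothalamic hormone lists ran from -1.04 (Ghrh) to 0.31 (Nkx2-1) there. Among them were Trh (-0.70), Hcrt (-0.69), Pmch (-0.61), Kiss1 (-0.59) and Oxt (-0.12). Over 23 arrays Tshb correlated with Agrp at r = 0.72, with Pomc at r = 0.59 and with Npy at r = 0.51. Without WT replicate 7 and Per3 5/5 replicates 6 and 7 (20 arrays), Agrp kept r = 0.72, whereas Pomc dropped to 0.13 and Npy to 0.22. None of the 3 was called in Per3 5/5 against WT (Agrp -0.88, SE 0.37, adjusted p = 0.102). Without Per3 5/5 replicate 7 the Tshb difference was -2.05 (SE 0.47, adjusted p = 0.0117).

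**Figure D5:**
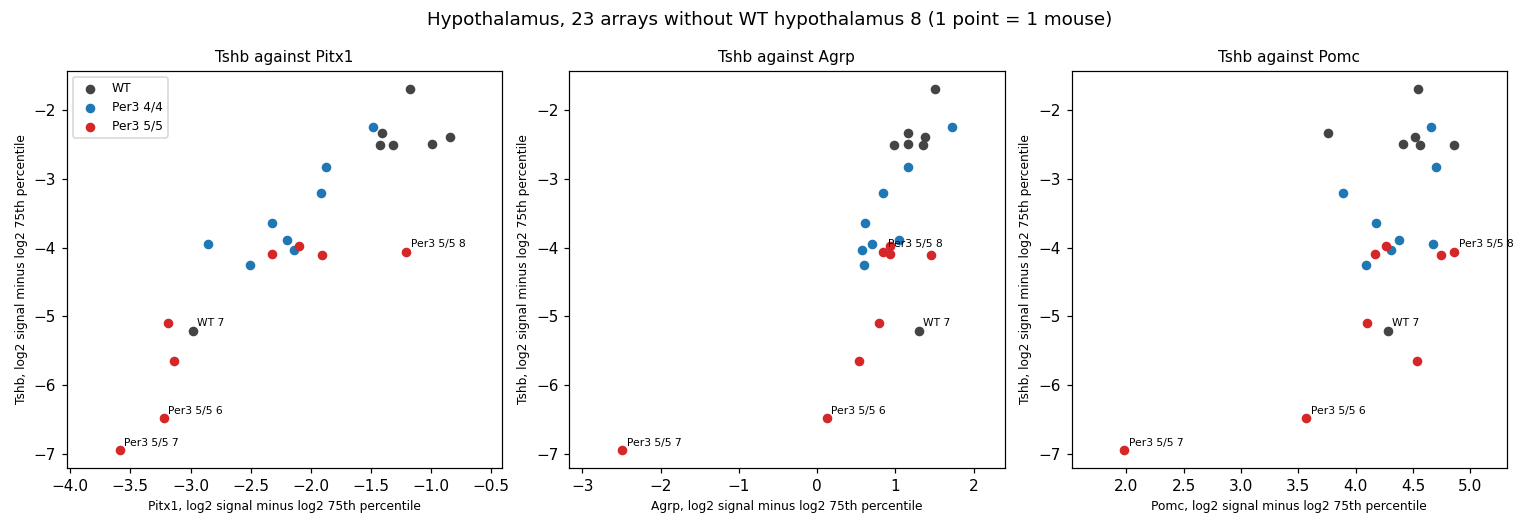
Tshb (y axis) against Pitx1, Agrp and Pomc (x axes) on the 23 hypothalamus arrays without WT replicate 8 (log2 signal minus the log2 75th percentile; 1 point is 1 mouse, coloured by genotype). Tshb follows Pitx1 over the whole range (r = 0.90), while Per3 5/5 replicate 7 lies far to the left in Agrp and Pomc.

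The genes that act before and after the hormones gave few calls. Of 8 hypothalamic hormones and enzymes that act on the pituitary, Th, the rate-limiting enzyme of dopamine synthesis, rose in Per3 5/5 (0.50, adjusted p = 0.0250) and in Per3 4/4 hypothalamus (0.59, adjusted p = 0.0201) against WT, and Trh, Ghrh, Gnrh1, Sst, Avp, Oxt and Kiss1 were not called. Of 9 probes for receptors on pituitary cells, the dopamine receptor Drd2 rose in both (0.46, adjusted p = 0.0163, and 0.49, adjusted p = 0.0205). Of 12 probes for receptors and mediators of the hormones, 1 Ghr probe fell in both (-0.38, adjusted p = 0.00340, and -0.34, adjusted p = 0.0119). Single calls in lists of 8 to 12 probes stand beside 17.1% and 12.4% of all probes called in these comparisons, which share the WT arrays. With scan day as a block, nearly all calls over all probes were lost in both comparisons. In Per3 4/4 cortex against WT, Cish, Igf1 and Prlr fell (3 of 9 probes), Crhr1 rose among receptors and Kiss1 rose among the hypothalamic hormones, where 9.03% of all probes were called lower and 13.1% higher.

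The pars tuberalis and thyroid hormone loop gave no call between genotypes. Its 11 probes tested include Eya3, Chga, the deiodinases Dio2 and Dio3, the thyroid hormone transporter Slco1c1 and the receptor Thrb, and 0 of 11 were called by limma in any genotype comparison of either tissue. Both Mtnr1a probes (the melatonin receptor of the pars tuberalis) missed the filter on dim probes and were not tested, so no result is given for that gene. They were well above background on 10 and on 1 of the 23 hypothalamus arrays. Their levels correlated with Tshb at r = 0.49 and r = 0.37 in that order, in part or nearly whole from background signal. The median difference over these 11 probes in Per3 5/5 against WT hypothalamus was -0.09. Dio2 and Dio3 were both called lower in hypothalamus than in cortex in all 3 genotypes, with log2 differences of -3.84 to -3.57 for Dio2 and -2.77 to -1.98 for Dio3.

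The probes whose pattern was most like the mean of the 7 members over all 24 hypothalamus arrays were 4930579G24Rik (r = 0.94), Smim22 (0.93), Bhlha15 (0.92), Alox12e (0.92), Ccdc68 (0.92), Krt7 (0.91), Ccnd2 (0.91), Btg2 (0.91), Grb7 (0.90) and Cldn3 (0.90). Without WT replicate 8 the likeness was lower, with Alox12e (0.72), Mrtfb (0.70), Dusp27 (0.70), Gabra6 (0.68), Cldn34b2 (0.68), Them5 (0.65), Bcl2l11 (0.65), 4930579G24Rik (0.64), Slc5a9 (0.63) and Cemip (0.63). Alox12e and 4930579G24Rik were in both lists. In the second list Gabra6, Them5, Slc5a9 and Cemip were well above background on 1 of the 23 arrays each, Dusp27 on 6 and Bcl2l11 on 12, so that their likeness rests in part or nearly whole on background signal. In cortex Pomc came first over all 24 arrays (r = 0.88), ahead of 1700030J22Rik (0.81), Nox1, Kcnj15, Zfp169, Mllt6, Zdhhc15, Ctsr, Rev3l and Aldoart1 (0.79 to 0.75). Without Per3 5/5 replicate 5 none of these stayed among the 10 most alike, which were Rab40b (0.84), Camk2d, Dph3, G3bp1, Tbl1xr1, Gpc4, Zbed4, Kera, Chd5 and Tenm4 (0.81 to 0.77). Kera was well above background on 0 of these 23 arrays, and of the first cortex list Nox1 and Aldoart1 were so on 1, Kcnj15 on 2 and Ctsr on 5 of 24.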

How the data were processed

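RNA of frontal cortex and hypothalamus was hybridised to 1-colour Agilent 4x44K arrays, 1 array per tissue and mouse. The authors deposited the scanner output, with a processed signal and median spot and background signals per spot, which are intensities on a linear scale, and quality calls per spot. A series table of log2 values that the authors deposited (percentile shifted, per the study's methods) served as an alternative. Genotypes came from the labels, and replicate numbers from the labels.

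Processed signals were divided by the array's own 75th percentile over non-control spots and put on a log2 scale. Spots called outliers were left out, spots of a probe were averaged, and a probe was tested where it was well above background (in most of its spots, ties included) on at least 75% of the arrays of 1 group in the fit. Genotypes were compared in each tissue over the 3 genotypes, and tissues on the differences within each mouse, with lmFit and eBayes in limma 3.58.1 (R 4.3.3). P-values were adjusted by the Benjamini-Hochberg method over all probes tested and called under 0.05. The arrays that chose the genes were left out of tests. Exact two-sided permutation tests used scipy 1.17.1. The scripts were tested on simulated data. Levels of different probes were not compared, and so no share of the summed signal is given. Mice of a group are separate animals by the labels.

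Probes were named through RefSeq accessions. All probes of the 8 genes are named, with the 15 probes of largest excess on each chosen array, the 10 probes most alike, and called probes of the lists. Some genes of the lists count in the totals but are not reported here by name. The genes and lists were chosen with earlier results of these data known. Alternatives were other scaling (median, quantile, a percentile over detected probes), normexp on the median signal (the files used hold no mean signal), other filters, outlier spots kept, the series table, each array left out, the scan day as a block or alone, slide as a random block, the replicate number as a block, the methods' t-test and the permutation test.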

Additional observations from a re-analysis of the deposited data

Results flagged for a closer look

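In each group of 8 arrays the gap of the highest or lowest value to the next was set against the range of the group, and 15 of 42 groups passed Dixon's 95% critical value of 0.526. Of these, 11 came from the 2 arrays that chose the genes, so that count is fixed by the choice and is not set against chance. Of the 28 groups that hold neither array, 3 passed, where chance gives about 1 in 20. WT hypothalamus replicate 8 stood apart as the highest array in all 7 probes: Prl (7.89), Gh (8.09), Cga (7.78), Tshb (3.32), Lhb (2.64), Fshb (0.78) and Ghrhr (-0.086). Per3 5/5 cortex replicate 5 stood apart as the highest in Prl (1.61), Gh (1.24), Cga (-0.75) and Tshb (-4.84). These 2 arrays chose the genes, so their values are a description.

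The other 4 values came from arrays that the choice did not name. Prl was highest on WT cortex replicate 7 (-2.68), where Gh exceeded the cortex median by 1.16 and Cga by 0.74. Cga was highest on Per3 5/5 hypothalamus replicate 8 (3.70). Ghrhr was lowest on replicate 3 of Per3 5/5 mice in both tissues, at -6.83 in cortex and -6.54 in hypothalamus.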

How the results depend on the processing

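Tshb in Per3 5/5 against WT hypothalamus was below 0 in all 38 alternatives without the array that chose the genes and past the threshold in 35 of them. It lost the call with scan day as a block (-2.17), within scan day 3 (-1.79) and, with the difference of -2.32, in the exact permutation test after adjustment over the member probes and comparisons. Leaving out 1 array at a time gave -2.73 to -2.05. Normexp gave -1.22, which was called. With all arrays the value was -3.07, given without a test. Members called in that comparison numbered 0 with scan day as a block, 0 within scan day 3, and 1 to 2 with 1 array left out (2 without Per3 5/5 replicate 8). With normexp 5 members were called in Per3 4/4 and 3 in Per3 5/5 cortex against WT, and 1 in each of the tissue differences of Per3 4/4 and of Per3 5/5 against WT.

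Values that changed sign were Cga in Per3 5/5 against WT hypothalamus within scan day 3 (0.048), Prl in that comparison with all arrays (-0.78), without Per3 5/5 replicate 8 (-0.44, range over single arrays -0.44 to 1.497) and also without Per3 5/5 replicates 5, 7 and 8 (-2.01), Gh with all arrays (-0.16) and also without those 3 (-0.30), and the Ghrhr excess on Per3 5/5 cortex replicate 5 with median centring (-0.00025). Normexp lowered the excess of Prl, Gh and Cga on that array to 4.69, 4.53 and 2.81. The cause was not tested.

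Over all probes, scan day as a block took the calls in hypothalamus from 5220 to 18 for Per3 5/5 and from 3777 to 13 for Per3 4/4 against WT, and in cortex from 2533 to 0 and from 6543 to 2026. Normexp gave 1354 and 760 in hypothalamus, and 7274 and 15910 in cortex. Without a filter 2342 probes were called in Per3 4/4 against WT hypothalamus, and with the replicate block 1731 were called in Per3 5/5 against WT cortex (2533 without it). Same-numbered mice of different genotypes correlated over 0.1 in 4 of 8 (Per3 5/5 with Per3 4/4), 5 of 7 (Per3 5/5 with WT) and 1 of 7 pairs (Per3 4/4 with WT) in hypothalamus. The highest r was 0.53, 0.36 and 0.12 in that order. Replicates 1 to 4 of Per3 5/5 and Per3 4/4 shared a slide number by number, so the replicate number stands in part for the slide. With the replicate block Tshb was -2.36 (adjusted p = 0.00738) and no member's call changed. For the tissues the mouse is the pair, and without the replicate block the Ghrhr call in Per3 4/4 was lost (-0.45). Dim probes (Tshb in cortex, Fshb and Ghrhr) limit what the arrays can show.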
